A study of Oryza sativa Indica Group with 17 samples.

Results

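In the gamma ray line G282, 10 genes that lie close together on chromosome 7 had most of their array probes flagged as low against wild type rice. They were chosen as the genes of an unbroken chromosome 7 run whose share of flagged probes in G282 was 0.86 or more, and they are 10 of the 17903 nuclear genes that could be placed. The genes, in chromosome order, were LOC4342244, LOC4342247, LOC4342250, LOC4342251, LOC9267609, LOC4342259, LOC4342264, LOC4342265, LOC4342266 and LOC4342267. The tables used here give none of these 10 a name or a function.

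Genomic DNA from leaves of greenhouse plants of 45 days was hybridized to the Affymetrix Rice GeneChip, with 1 array for each of 16 mutant lines and 1 for a wild type check, 17 arrays in all. Every line descends from the indica variety IR64 by single seed, through 1 mutagen, and was taken at the M4 or M5 generation. By their labels 10 lines came from gamma rays (G282, G650, G6485, G6489, G6603, G6686, G6728, G7534, G9799 and G6989), 2 from fast neutrons (F1856 and F2045) and 4 from diepoxybutane, or DEB (D256, D1137, D2943 and the dwarf line d1). The methods of the study give gamma rays for d1, so its mutagen is in doubt, which touches none of the values below. No line has a replicate array, so no spread between plants of 1 line can be given, and a difference between lines has no replicate check.

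Ionizing radiation breaks both strands of DNA, and faulty repair of such breaks can remove a stretch that holds many neighbouring genes. Genomic DNA that lacks a stretch has nothing to pair with the probes designed on it, so the signal of those probes drops, whether or not the genes are expressed. The probes of this array were designed mainly on japonica transcripts. By the paper, that difference is masked because each line is compared with wild type IR64. A base change in a line can also lower the signal of a probe, and a near-identical copy elsewhere in the genome can keep it. Each probe set holds several perfect match probes, and the value used throughout is the part of them that carried the authors' flag for a low signal, from 0 (no probe) to 1 (every probe). Where a gene had several probe sets the median was taken. Genes with a share of at least 0.5 were called, the proportion that the methods use. For G282, with its many predictions, the paper recommends a stricter log ratio limit to reduce false positives. The shares count low probes and measure neither copy number nor the borders of a lost stretch in bases.

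The general level of flagged probes differed widely between arrays. Over the genes outside the run the mean share went from 0.00385 in G650 to 0.216 in G6989, and G282 was the second highest at 0.143. The wild type check stood at 0.0815. The paper's counts of predicted deletions per line do not include G6989 or D1137, and no reason is given. It states that arrays deviating strongly from wild type were discarded, without naming them. Both lines are kept here among the other arrays. In 57008 of the 57194 probe sets all values were multiples of 1/11 within 0.001, so the shares of a single probe set are 0.0909 apart, and the median over an even number of sets can fall midway. Differences of 1 such step or less are not read as an order here.

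The sequences that belong to this chromosome in the material used here are PCR primers of the study. They are shown because they are the means by which chromosome 7 loci were examined apart from the array. The paper reports that PCR bore out a large deletion on this chromosome in G282. Its figure marks gene models found deleted by PCR and also a gene model found present. The paper's text does not say which of the loci below were found deleted. Its own extent of the deletion came from an aggregation analysis and was not compared with the run here. The 8 primers cover 4 loci, named by an older annotation, and no table used here pairs these loci with the measured genes, so none can be set beside a gene of the run. Each is written 5′ to 3′ with no part marked by capitals.
LOC_Os07g02260 forward: aggaacggctggaggtaagtaa
LOC_Os07g02260 reverse: acacattgttggacgcgtga
LOC_Os07g02270 forward: tctcgatagctacatccggaagttg
LOC_Os07g02270 reverse: acttaagatttcgtattgcctcacacat
LOC_Os07g02640 forward: gagcaccttgattgagcatgactg
LOC_Os07g02640 reverse: gtgcaaagttcctgcgatctcttc
LOC_Os07g02800 forward: agaagaagggtggtgatcgtaagg
LOC_Os07g02800 reverse: ggtacttctgcgcaatcagaatcg
The primers are 20 to 28 bases long, and the reverse primer of LOC_Os07g02270 has the lowest GC content (35.7%).

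In G282 the 10 genes had a median share of 0.909, a mean of 0.918 and an SD over genes of 0.0359. These are the values that chose the genes, so they are given as a description. LOC4342247 had every probe flagged (1), and LOC4342265 followed at 0.955. A value of 0.909 was shared by LOC4342244, by the pair LOC4342250 and LOC4342251, by LOC4342259 and LOC4342264, and by the neighbours LOC4342266 and LOC4342267. LOC9267609 was the lowest at 0.864. The neighbours in this order are at most 1 step apart and cannot be ranked. All 10 were called in G282, where 1.32% of the 17903 genes were called. Of the 11 genes of the genome (0.0614%) at 0.86 or more in this line, LOC4328285 on chromosome 2 was the 1 that is not on chromosome 7. It was called in 2 other arrays, with a highest share of 0.818. None of the 10 chromosome 7 genes was called in any other array, which held for 94.9% of all measured genes.

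The genes sit in a run of 14 measured genes, every one called. The other 4 were called but lay under the share used for the choice. LOC4342248 and LOC4342269 had 0.818, the values nearest to it from below, as LOC9267609 at 0.864 is the nearest from above. LOC4342249 had 0.727. OsPP2C61, which belongs to the protein phosphatase 2C genes, had 0.545 and was the lowest of the run. Enzymes of this family remove phosphate from serine and threonine residues of other proteins, and some members restrain signalling by abscisic acid, the plant hormone of drought and seed dormancy. OsPP2C61 is also the 1 gene of the run whose highest share elsewhere was in the DEB line D1137 (0.364).

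The genes next to the run had low shares in G282. On the side of LOC4342244, the next measured genes outward were LOC4342242 and LOC4342241 (share 0 each), LOC4342240 (0.182), LOC4342234 (0.0909) and LOC4342233 (0.273). On the side of LOC4342269 they were LOC4342270 and LOC4342274 (0.0909 each), LOC4342277 and LOC4342280 (0.273 each) and LOC9268981 (0.318). The first gene on either side is uncalled by the way the run was set, and it lay at least 0.727 below its neighbour inside the run. None of the other 8 was called, as is usual in an array with 1.32% of genes called.

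Farther out single genes were called. Within 20 measured genes on each side these were LOC4342219 (0.727) and LOC4342290 (0.545). LOC4342219 was called elsewhere as well, with a highest share of 0.636 among the other arrays, while LOC4342290 reached 0.364 there. Of the 1359 measured chromosome 7 genes outside the run, 13 were called in G282 (0.957%).

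**Figure D1:**
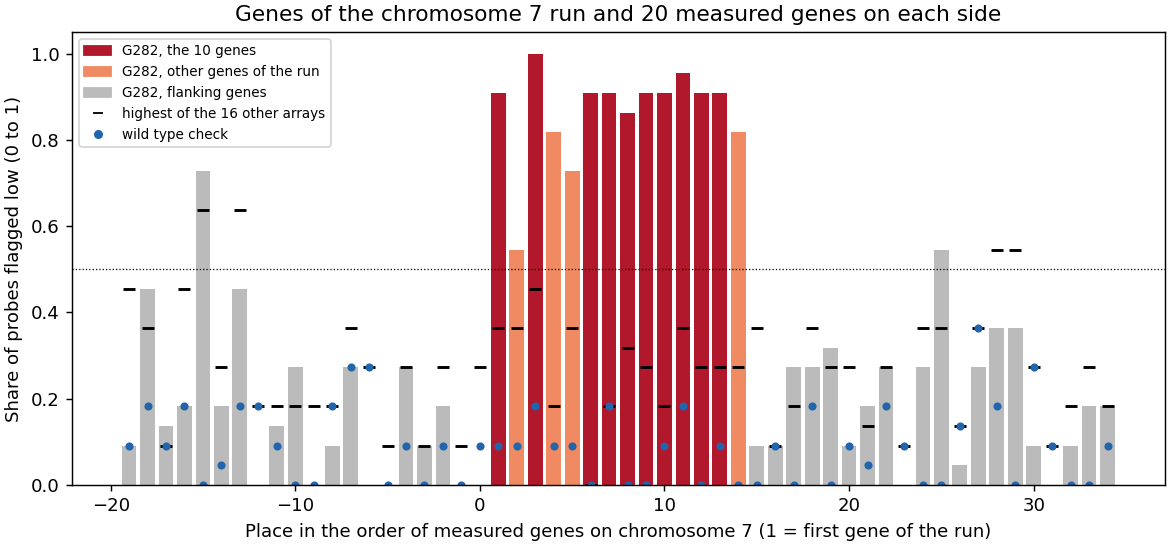
Bars give the share of flagged probes in G282 for the 14 genes of the run and 20 measured genes on each side, in chromosome order. Dashes give the highest value of the 16 other arrays, points the wild type check, and the dotted line the share of 0.5 at which a gene was called. The 10 genes stand at 0.864 or more, and the nearest gene beyond the run is at 0 on the left and at 0.0909 on the right.

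The run is known only at measured genes. In the gene order of a japonica assembly, 34 gene models lie from LOC4342244 to LOC4342269, of which 31 code for proteins, and 20 of the 34 have no paired probe set. The largest group of unmeasured models, 7, lies between LOC4342251 and LOC9267609. A further 5 lie between LOC9267609 and LOC4342259, and 5 between LOC4342259 and LOC4342264. LOC4342264, LOC4342265, LOC4342266 and LOC4342267 follow each other with no model between them, and so do LOC4342250 and LOC4342251. Between LOC4342242 and LOC4342244, 4 unmeasured models leave the first edge unresolved, whereas LOC4342269 and LOC4342270 are direct neighbours. IR64 is an indica variety, and its gene order here was not measured.

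In the 16 other arrays, which played no part in the choice, the same genes were low. Of the 160 pairs of a gene and an array, 0 were called. Over all genes 0.346% of such pairs were called, and 94.9% of genes were called in none of the 16 arrays, so an absence of calls is the usual state of a gene and not a result about these 10. A share of 0 was found in 90 pairs (56.2%, against 63.9% over all genes), and 6 pairs were above 0.3. The highest share, 0.455, was reached by LOC4342247 in G6603 and in G6989.

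LOC4342247 had the highest mean over the other arrays, 0.131. Its share there went from a lowest of 0 through a median of 0.0455 to a highest of 0.455, with 0.182 in the wild type check and 0 in 8 arrays. As in all 10 genes, the G282 share was above every other array, which held for 11.7% of the measured genes. It lay 0.545 above the highest of the other arrays. A mean as high is uncommon, since 96.5% of the measured genes had a lower one.

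LOC4342250 was at the other end, with a share of 0 in each of the 16 other arrays and 0.909 in G282. Such a silent background was shared by 1.32% of all measured genes. Among the 10 genes, LOC4342250 therefore had the largest gap between G282 and the highest other array (0.909). Against the wild type check, LOC4342259 and LOC4342266 had the same gap of 0.909. These gaps use the G282 shares that chose the genes and are a description.

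LOC4342264 and LOC4342251 were nearly as quiet. LOC4342264 had 0 in 13 arrays, a median of 0 and a highest of 0.182 in G6989, with 0.0909 in the wild type check. LOC4342251 had 0 in 12 arrays and a median of 0, and its highest value, 0.182, was that of the wild type check itself. In both genes G282 exceeded every other array by 0.727.

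LOC4342244, LOC4342259 and LOC9267609 were low in most arrays and moderate in 1 or 2. LOC4342244 had a median of 0, 0.0909 in the wild type check and a highest of 0.364 in G7534, which is 0.545 below its G282 value. LOC4342259 had a median of 0 and 0 in the wild type check, with 0.273 as its highest in G6728 and G6989. LOC9267609 had a median of 0.0227, 0 in the wild type check and 0.318 in G6989. For each of these genes G282 stood above all other arrays.

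LOC4342265, LOC4342266 and LOC4342267, which are neighbours, were flagged a little in many arrays. LOC4342265 had a median of 0.0455 and a highest of 0.364 in G6989, and 0.182 in the wild type check. LOC4342266 had a median of 0.0909 and a highest of 0.273 in G6686, and 0 in the wild type check. LOC4342267 had a median of 0.0909 and a highest of 0.273 in G6989, and 0.0909 in the wild type check. Their means over the other arrays, 0.0966, 0.0909 and 0.102, were above those of at least 85.8% of the measured genes, and their G282 shares were still at least 0.591 higher than in any other array.

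Among the 4 remaining genes of the run the separation was smaller for those with the lowest G282 shares. OsPP2C61 had a median of 0 in the other arrays and 0.0909 in the wild type check, and G282 exceeded the highest other array by 0.182, or 2 steps. LOC4342249 had 0.364 in G6989 as its highest, 0.364 below G282. LOC4342248 reached 0.182 and LOC4342269 0.273, both in G6989, which left differences of 0.636 and 0.545.

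**Figure D2:**
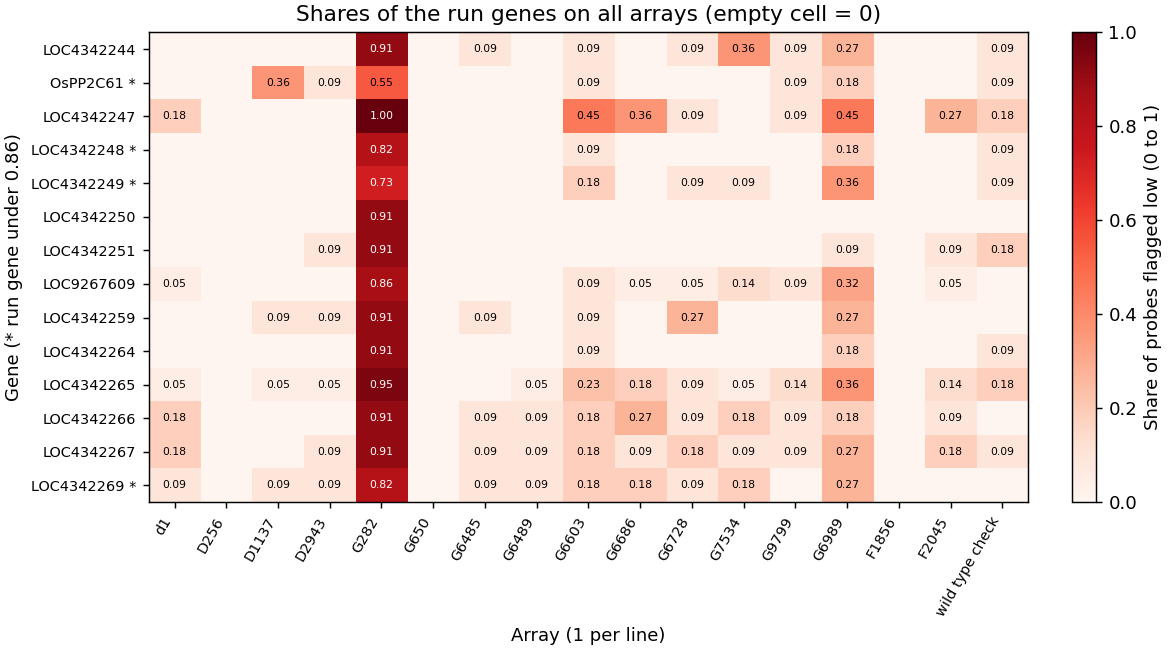
Each cell is the share of flagged probes of a run gene (rows, in chromosome order, with an asterisk for the 4 genes under 0.86) on an array (columns, 1 per line), with the value written in and empty cells at 0. The G282 column is dark throughout, from 0.545 in OsPP2C61 to 1 in LOC4342247, the row of LOC4342250 is empty in all other arrays, and no other cell exceeds 0.455.

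By line, the 10 genes had a share of 0 throughout in 3 arrays, those of D256, G650 and F1856. The DEB lines D1137 and D2943 had means of 0.0136 and 0.0318, with no gene above 0.0909. The gamma ray lines G6485 and G6489 also stayed at 0.0909 or below, with means of 0.0364 and 0.0227. G9799 reached 0.136 at most. The highest share in d1 was 0.182, as in the wild type check.

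In the remaining lines at least 1 gene was at 0.273 or above. F2045 (mean 0.0818) and G6728 (0.0864) reached 0.273, and G7534 (0.0818) and G6686 (0.0955) reached 0.364. G6603 had a mean of 0.141 and G6989 of 0.241, the highest after G282. In G6989 every gene but LOC4342250 had a share above 0. None was called, which is the usual state of a gene there. That array has the most calls of all, and 3.10% of its genes were called.

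These levels followed the general level of each array. Over the 16 arrays without G282, the mean share of the 10 genes and the mean share of the genes outside the run gave Pearson's r = 0.938 and Spearman's rho = 0.894. Without G6989 and G6603, the arrays farthest from the median, r was 0.805 and rho 0.840 over 14 arrays. The arrays share 1 wild type as their reference by the labels, and this was the 1 relation of its kind that was computed. No p is given, because the genes were chosen with results known.

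The 10 genes lay above the mean of the other genes in 11 of these arrays and below it in 5, and the difference stayed between -0.0356 (D1137) and 0.0501 (G6603). In G282 it was 0.775, a description only, because the genes were chosen for high shares in that array. The level of the G282 array was 0.143. G6989 had a higher level, and the same genes had a mean of 0.241 there. Whether the array level plays a part in the G282 shares was not tested.

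**Figure D3:**
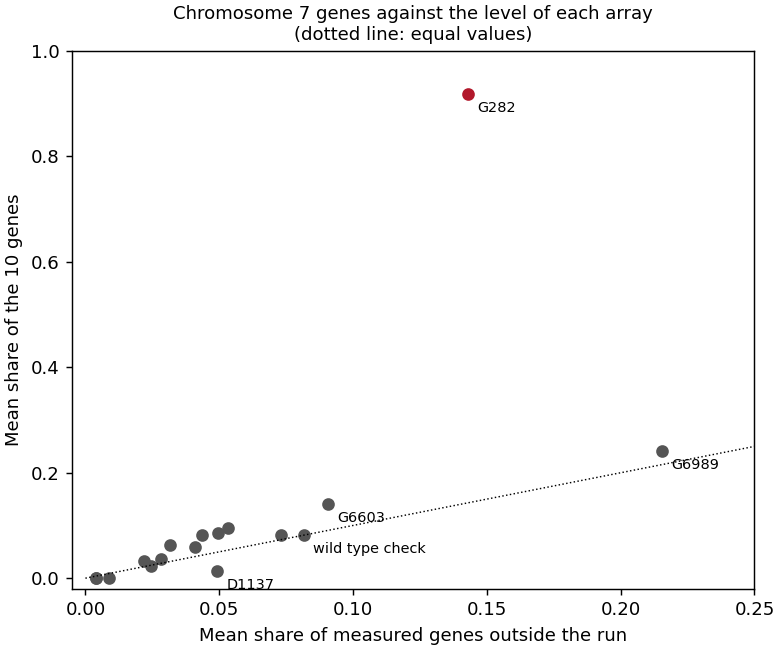
Each point is an array, with the mean share of the genes outside the run on the horizontal axis and the mean share of the 10 chromosome 7 genes on the vertical axis (both from 0 to 1), and the dotted line marks equal values. The 16 other arrays lie within 0.0501 of the line, while G282, on whose shares the genes were chosen, lies 0.775 above it.

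Of the 10 genes, 8 are measured by 1 probe set each, so their shares rest on single sets. LOC4342265 has 2, with 1 and 0.909 in G282. Its first set, Os.9730.1.S1_at, was the 1 member set called in another array, at 0.545 in G6989, where the second set had 0.182. LOC9267609 has 4 sets, with 1, 0.909, 0.818 and 0.455 in G282, so 1 of them was not called. That set, Os.35752.1.S1_at, had 0 in the wild type check and at most 0.273 in the other arrays. In all, 13 of the 14 probe sets were called in G282, where 1.32% of the measured genes were called, a percentage over gene values. The genes were chosen on the values of these sets, so the count is a description.

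Further probe sets carry the same cluster number in their names as sets of LOC9267609 or LOC4342259 but are paired with no gene. There are 6, and 5 of them were called in G282, where 1.32% of the measured genes were called. That percentage is over gene values and not over single sets. All but Os.34631.2.S1_at carry the same cluster number, so they may not be separate observations. Os.35752.2.S1_x_at had every probe flagged there and at most 0.0909 in the other arrays. Os.35752.2.A1_at had 0.909 and Os.34631.2.S1_at 0.818. The sets of the third sub-cluster were lower, at 0.636, 0.545 and 0.455, and Os.35752.3.S1_at was higher in D1137 (0.727) than in G282 (0.636). A shared number in a name does not give a place on a chromosome, and these sets entered no gene value.

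**Figure D4:**
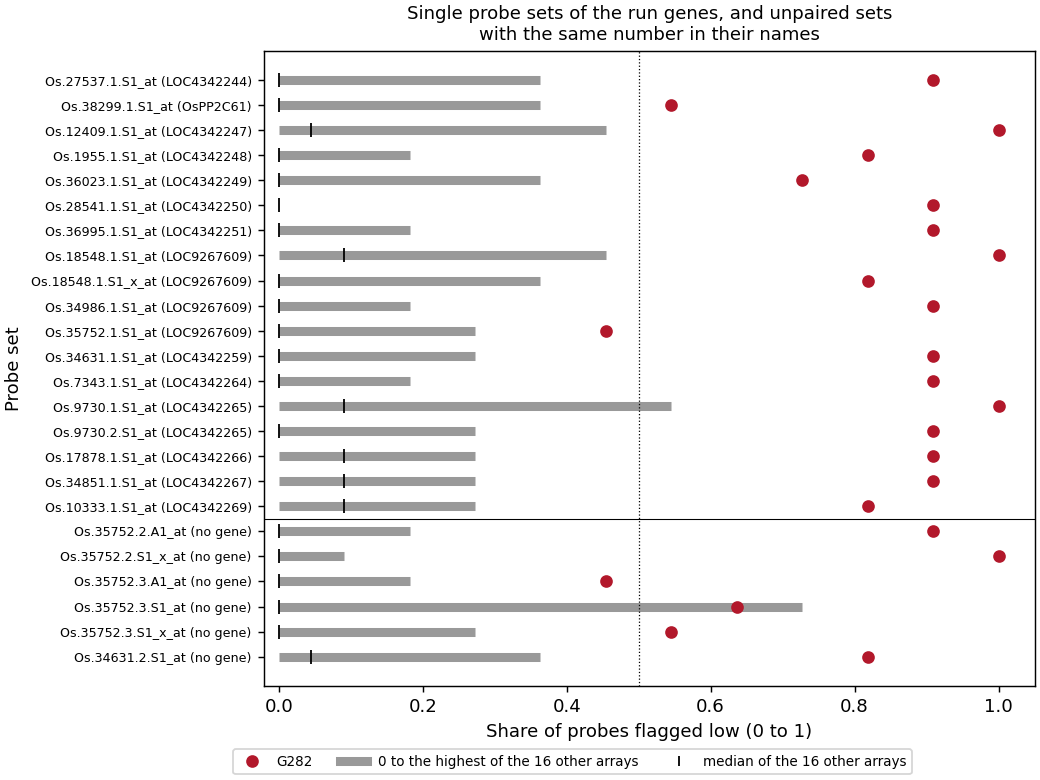
Red points give the share of flagged probes in G282 for each probe set of the run genes (upper part) and for the 6 unpaired sets that carry the same number in their names (lower part), on an axis from 0 to 1. Grey bars run from 0 to the highest of the 16 other arrays, ticks mark their median, and the dotted line is the share of 0.5. Os.35752.3.S1_at is the 1 set whose grey bar passes its red point.

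Over all 17 arrays the shares of the 14 run genes correlated with the mean of the 10 genes at r between 0.782 and 0.988. The genes outside the run whose pattern was most alike were LOC4345065 on chromosome 8 (r = 0.979) and 7 genes tied at r = 0.977, the first of them LOC4331688 on chromosome 3 and LOC4334937 on chromosome 4. Their shares in G282 were low, 0.364 for LOC4345065 and 0.273 for LOC4331688 and LOC4334937, with at most 0.0909 elsewhere, and none of these 3 was called. Of the 20 genes most alike, 6 were called in G282, such as LOC4324282 (r = 0.975, share 0.636) on chromosome 1 and LOC4349035 (r = 0.972, share 0.727) on chromosome 10, both named after their values were seen. These correlations rest on the single array of G282 and are a description.

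Runs of called genes in other lines were flagged in those lines and low in G282. The 6 genes of the chromosome 5 run of d1 had a median share of 0.818 in d1 and 0.136 in G282. The 5 genes of the chromosome 10 run of G6489 had 0.818 in G6489 and 0.182 in G282. The 10 chromosome 7 genes in turn had a median of 0.0227 in d1 and 0 in G6489. No test was made of these differences, since each list was chosen on its own line.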

How the data were processed

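The authors scanned each array more than once and averaged the scans, brought the log2 signal of perfect match probes to the level of wild type without correcting for background, and flagged every probe whose log2 ratio against wild type fell under a limit. The deposited values are fractions, the share of flagged probes per probe set. That limit is not given for the deposited values in what was used here. The submitters' processing notes name affy, with no version. Signals were not analysed here, so depth and signal over background are unknown.

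Python 3.11.15 with numpy 2.4.6, pandas 2.3.3 and matplotlib 3.10.9 was used. Of the probe sets, 22436 are paired with exactly 1 gene, 95 with several and 34663 with none, and sets with 1 gene were used, by GEO's platform annotation. Genes were ordered on 12 chromosomes by the ASM3414082v1 assembly, which served for names and order alone. Medians were taken over sets (3444 genes have several). Each line was its own group. The steps were tested on simulated data.

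Members and lists were chosen with earlier results of these data known. The genes named are the members, the rest of the run, 5 genes on each side, and the 3 genes of most alike pattern. The called genes farther out, LOC4328285 and the unpaired probe sets were named after their values were seen. Alternatives were other thresholds, summaries over probe sets, subtraction of the wild type check or the array mean, omission of cross-matching sets and arrays left out.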

Additional observations from a re-analysis of the deposited data

Results flagged for a closer look

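Probe sets with no paired gene, which enter no gene value, also held high shares in G282. Of the 118 probe sets at a share of 0.8 or more in G282, 56 were under 0.5 in every other array. Of these 56, 14 belong to genes of the chromosome 7 run, 4 to other genes and 38 have no paired gene. The unpaired sets are thus 67.9% of the 56, against 60.6% of the whole array. The 56 include the 14 run sets, most of whose genes were chosen for high G282 shares, which lowers that percentage. Outside the run, 38 sets were unpaired and 4 belonged to other genes. The low values in other arrays were part of the choice. Of the unpaired sets 32 have names that begin with OsAffx. The 38 include Os.34631.2.S1_at, Os.35752.2.A1_at and Os.35752.2.S1_x_at, which were described above. In the wild type check these 38 had a share of at most 0.364, and 0 unpaired sets of the whole array reached 0.8 there. By the same count D1137 had 32 such unpaired sets, G650 had 16 and G6989 had 10. The 4 other genes were LOC4333005 and LOC4333552 on chromosome 3 and LOC4345203 and LOC4345406 on chromosome 8, at 0.818 each in G282. They were singled out after their values were seen.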

How the results depend on the processing

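Of 20 alternative settings, 16 kept the result within the bounds set here, which were 1 SD over the 10 genes for the median, a factor of 1.5 for counts, and the direction and the permutation threshold of 0.05 for the relation to the array level. The median share of the 10 genes in G282 (0.909) was 0.818 with the wild type check subtracted and 0.766 with the mean share of the genes outside the run subtracted. These shifts exceed the SD over the 10 genes, which are no replicates. All 10 genes stayed called in G282 with thresholds of 0.4, 0.6 and 0.8. The genes were chosen for shares above these thresholds, so that outcome was fixed by the choice. The settings with these thresholds in G282 are counted among the 16 but are no check of the result. All 10 genes also stayed called in G282 after either subtraction, and 9 with the lowest share over probe sets. For the array mean (0.143) this too was fixed by the choice at 0.86 or more. Summaries over probe sets could change only LOC4342265 and LOC9267609, since the other genes have 1 set each. With 0 calls at 0.5 in the other arrays, a threshold of 0.6 could give no more. Where such settings kept the result, they are counted among the 16 but are little or no check. The calls in the other arrays rose from 0 to 2 with a threshold of 0.4, both of them LOC4342247, and to 1 with the highest share over probe sets, LOC4342265 in G6989. The relation to the array level had r = 0.805 without G6989 and G6603, 0.941 without the wild type check and 0.911 with the median over the genes. With 1 array a line, no replicate could be left out. No paired analysis was possible because a line has a single array. The precision of a share is limited by the step of 0.0909 of a single probe set.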

Other observations

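Many of the unpaired OsAffx probe sets that were high in G282 alone have numbers close to each other. Grouped by steps of at most 10 in the number of the name, 20 of the 32 fall into 4 groups of 3 or more. The group from 28233 to 28239 holds 8 sets, all called in G282, with shares of 0.636 to 1. The group from 21049 to 21055 holds 6 sets, all called, with a median of 0.864. The group from 21073 to 21080 holds 6 sets with 5 called and a median of 0.909, and that from 16045 to 16053 holds 10 sets with 6 called and a median of 0.636. In all, 25 of these 30 sets were called in G282, where 1.31% of the 25500 OsAffx sets were called. The groups were formed on the G282 shares, so this count is a description. Of the 30 sets, 20 were picked for shares under 0.5 in the other arrays, so their values there are no result. Among the 5 sets next in number on each side, the highest G282 share was 0.182 before and after the group from 21049 to 21055. It was 0.727 before and 0 after the group from 21073 to 21080, 0.727 and 0.0909 for that from 16045 to 16053, and 0.182 and 0.364 for that from 28233 to 28239. The nearest OsAffx sets by number that are paired with a gene lie on chromosome 1 on both sides of the groups from 21049 and from 21073. They lie on chromosomes 7 and 12 for the group from 16045 and on chromosomes 5 and 7 for that from 28233. These numbers were not used to place the sets, and the relation of the sets to the chromosome 7 run was not tested.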
